A study of Mus musculus with 12 samples.

Results

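The genes described here encode the machinery that brings nuclear-encoded proteins into mitochondria. They were chosen by symbol, with earlier results of these data known. The rule took every gene of the count table whose symbol begins with Timm or Tomm. It also took Pam16, Dnajc15, Dnajc19, Grpel1, Grpel2, Samm50, Mtx1, Mtx2, Chchd4, Gfer, Pmpca and Pmpcb, and gave 36 of 15113 genes. Their RNA was measured in myotubes of C2C12, an established mouse muscle line without added alleles, whose myoblasts fuse when confluent cultures are moved from bovine to horse serum. The myotubes received 20 μM BAM15, a small molecule that uncouples mitochondrial respiration from ATP synthesis, or vehicle (DMSO) for 16 h. BAM15 itself was given in DMSO, so the solvent was common to both conditions, and 6 libraries numbered 1 to 6 were sequenced per condition. The labels do not say whether the libraries came from separate cultures, so p-values here measure the spread between libraries of 1 cell line, which may be technical.

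Most mitochondrial proteins are made in the cytosol and enter through the TOM complex of the outer membrane. From there the small Tim chaperones carry hydrophobic proteins to the TIM22 complex, the TIM23 complex and its motor draw proteins with a presequence into the matrix, the sorting and assembly machinery inserts barrel proteins into the outer membrane, and the Chchd4 and Gfer relay folds intermembrane proteins by oxidation. Transport through TIM23 and TIM22 needs the membrane potential, which an uncoupler lowers, and the presequence is removed in the matrix by the peptidase Pmpca/Pmpcb.

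Libraries held 13983725 to 18866728 reads counted on genes, and all 36 import genes passed the filter on low counts, with 8 reads as the lowest count. The libraries were made with QuantSeq, which reads the 3′ end of a transcript, so counts do not grow with transcript length and are compared here for each gene between libraries, not between genes. Import genes together took 0.154% to 0.204% of the reads in BAM15 libraries and 0.176% to 0.192% in vehicle libraries. Of 12 myotube markers, 2 (16.7%) were higher and 3 (25.0%) lower after BAM15 at an adjusted p below 0.01. Of all tested genes, 22.0% were higher and 20.3% lower. The summed normalized count of the myotube markers was 443403 to 576713 in BAM15 and 471818 to 530471 in vehicle libraries, with none at 0. Of 10 markers of undifferentiated or cycling myoblasts, 1 (Myf5, 10.0%) was higher and 7 (70.0%) were lower. Their sum was 2914 to 3815 in BAM15 and 6753 to 7763 in vehicle libraries, with none at 0. Reads on genes of the mitochondrial genome made up 4.29% to 6.47% of BAM15 and 2.85% to 4.71% of vehicle libraries. The part of these shifts in the results on import genes was not tested, and in lysates of whole cultures fewer cells of a type and less RNA per cell cannot be told apart.

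Short stretches of promoter are shown for the genes with the lowest p in each direction, Timm10 (higher after BAM15) and Timm22 (lower), because they are the clearest members on either side. Both were read from RefSeq on GRCm38.p6 on the gene's own strand, from 250 bases before the annotated start, and stop before any annotated exon, after 226 bases for Timm10 (chr2:84826771-84826996, plus strand) and 250 bases for Timm22 (chr11:76406675-76406924, plus strand). Neither holds any of the 5 motifs searched, so neither has capitals.
Timm10: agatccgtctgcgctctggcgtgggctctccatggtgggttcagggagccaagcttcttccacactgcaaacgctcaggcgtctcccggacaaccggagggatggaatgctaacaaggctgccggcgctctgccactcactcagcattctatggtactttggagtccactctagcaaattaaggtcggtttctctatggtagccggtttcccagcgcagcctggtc
Timm22: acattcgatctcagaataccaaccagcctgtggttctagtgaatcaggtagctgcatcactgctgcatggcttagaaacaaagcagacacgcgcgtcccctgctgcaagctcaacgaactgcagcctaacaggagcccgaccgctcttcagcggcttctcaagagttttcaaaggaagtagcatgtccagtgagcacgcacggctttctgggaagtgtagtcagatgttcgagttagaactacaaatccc

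The motifs were searched on both strands of the RefSeq promoter windows, from 250 bases before to 50 bases after the start, which were found for 32 of the 36 genes (not for Grpel2, Tomm40l, Timm21 and Tomm7). The letters TGATGNAAN, written for ATF4 paired with a C/EBP factor, matched 0 of the 32 windows and 3.90% of all 32544 promoters in the table. The NRF1 letters GCATGCGC matched 2 (Grpel1 and Timm13) against 2.73% of all promoters, the YY1 letters AAGATGGC matched 2 (Mtx1 and Timm50) against 2.77%, and the ERR letters TCAAGGTCA matched 1 (Timm8b) against 0.412%. The NFY letters CCAAT matched 9 windows against 37.4% of all promoters. Over the 250 bases before the start, the median GC content was 57.6% for the 32 genes and 52.4% for all promoters. No motif overlapped another in letters, and a match describes the window only. The matches to the 3 rarer motifs with a hit are shown with their surroundings on the gene's strand, to let them be compared, with the matched letters in capitals. On this strand the match of Grpel1 is the reverse complement of the motif.
Grpel1 (NRF1, chr5:36465138-36465167, plus strand): aaggggcgtccGCGCATGCtcagtgtgggc
Timm13 (NRF1, chr10:80901143-80901172, minus strand): ttatattgtacGCATGCGCagcggggaggt
Mtx1 (YY1, chr3:89213878-89213907, minus strand): agagagcgtacAAGATGGCggcgcccatgg
Timm50 (YY1, chr7:28312017-28312046, minus strand): ggcgtcagcgcAAGATGGCggcctcggcgg
Timm8b (ERR, chr9:50603795-50603823, plus strand): tttcgagggcTCAAGGTCActctacaacc
Of these 5 genes, Grpel1 alone passed the test between BAM15 and vehicle described next.

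Differences in RNA of the import genes between BAM15 and vehicle were small and went in both directions. At an adjusted p below 0.01 (quasi-likelihood test of edgeR, Benjamini-Hochberg adjustment over 12730 genes), 5 of the 36 were higher after BAM15 and 4 were lower. These are 13.9% and 11.1% of the import genes, where 22.0% of all tested genes were higher and 20.3% lower. Their median log2 fold change was 0.02 (range -0.61 to 0.81), beside 0.02 over all tested genes, and the median size of the log2 fold change without its sign was 0.13, beside 0.32. With the study's thresholds (adjusted p below 0.01, a mean above 50 normalized counts and a change above 2-fold), 0 import genes were called by edgeR, as by DESeq2 and limma-voom, beside 3.70% of all genes called higher and 3.58% called lower. At an unadjusted p below 0.05, 11 of the 36 import genes differed. The share of all tested genes at this looser threshold was not computed. It includes the 22.0% higher and 20.3% lower at an adjusted p below 0.01. All 6 BAM15 libraries lay above all vehicle libraries in 5 import genes and below them in 3, where this held for 17.1% and 17.0% of all tested genes.

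**Figure D1:**
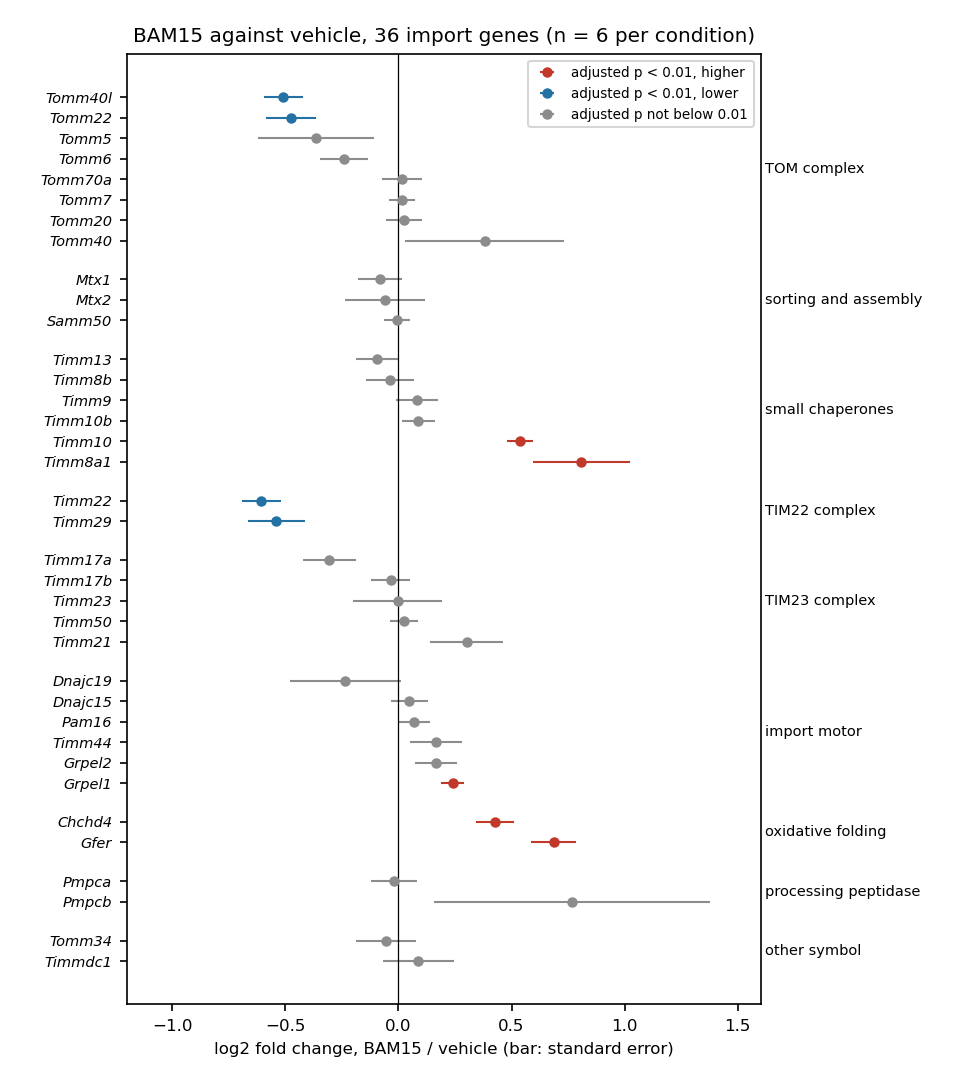
Log2 fold change of BAM15 over vehicle (x axis, point) with its standard error (bar) for each of the 36 import genes (y axis), grouped by role, 6 libraries per condition. Red points are the 5 genes higher and blue points the 4 genes lower at an adjusted p below 0.01, and grey points are the other 27, of which Pmpcb and Tomm40 have the widest bars among genes with positive values.

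The TOM complex had 8 genes, of which 2 were lower after BAM15, 0 were higher and 6 did not pass the test. Tomm22, the central receptor that also organises the complex (chromosome 15, 79670861 to 79673400), had normalized counts of 770, 918, 974, 1029, 1293 and 1315 in BAM15 libraries and 1339 to 1550 (median 1460) in vehicle libraries. Every BAM15 library was below every vehicle library, although the highest of the former and the lowest of the latter were close. The mean was 1050 ± 215 (SD, n = 6) after BAM15 and 1460 ± 76.4 (SD, n = 6) with vehicle, a log2 fold change of -0.48 (SE 0.11, adjusted p = 0.0020 by edgeR). With numbers 4 to 6 fitted alone the call was lost, at an adjusted p of 0.0146 (edgeR). Tomm40l, a paralog of the pore protein Tomm40 (chromosome 1, 171216011 to 171222514), had 255 to 297 normalized counts (median 264) in BAM15 libraries and 335 to 473 (median 377) in vehicle libraries. The groups were apart, with a log2 fold change of -0.51 (SE 0.09, adjusted p = 0.0001 by edgeR). The last 400 bases of Tomm40l, where reads of this kind fall, overlap exons of Nr1i3 on the opposite strand over 32 bases, and the strand used for counting is not given in the sources used here.

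Tomm40 itself, the pore, did not pass the test and varied widely between BAM15 libraries. Its normalized counts were 504, 319, 422, 716, 1595 and 1133 in BAM15 libraries 1 to 6, whereas vehicle libraries held 507 to 780 (median 554). The adjusted p was 0.385 (edgeR). The receptors Tomm20 and Tomm70a and the small subunit Tomm7 had log2 fold changes of 0.03, 0.02 and 0.02, each smaller than its standard error. The small subunits Tomm5 and Tomm6 had log2 fold changes of -0.37 (SE 0.26) and -0.24 (SE 0.11), with adjusted p-values of 0.249 and 0.0698 (edgeR). Tomm6 shares 73.5% of the 50-base windows of its last 400 transcript bases with Gm21981, so that its reads could be split between these genes. On the opposite strand, exons of Usp49 cover 93 of the last 400 bases of Tomm6, and exons of Nit2 cover 41 of Tomm70a. Usp49 and Nit2 had log2 fold changes of 0.36 and 0.20, with adjusted p-values of 0.223 and 0.374 (edgeR).

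The small chaperones of the intermembrane space had 6 genes, of which 2 were higher after BAM15, 0 were lower and 4 did not pass the test. Timm10, which forms the hexameric carrier with Timm9 (chromosome 2, 84826997 to 84830213), had normalized counts of 1277, 1126, 1184, 1108, 1095 and 1139 in BAM15 libraries 1 to 6. Vehicle libraries held 746 to 853 (median 785), well below all of these. The means were 1155 ± 67.2 and 796 ± 40.4 (SD, n = 6 each), 45.1% higher after BAM15, with a log2 fold change of 0.54 (SE 0.06, adjusted p = 1.095e-06 by edgeR). This was the lowest p-value among the import genes. Its partner Timm9 had 975 ± 154 after BAM15 and 922 ± 59.9 with vehicle (SD, n = 6 each) and did not pass the test (adjusted p = 0.486 by edgeR).

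Timm8a1, which works with Timm13 on inner membrane substrates (chromosome X, 134537256 to 134541865), had the highest log2 fold change of the 36 genes but very few reads. Its normalized counts were 13.9 to 24.8 (median 15.8) in BAM15 libraries and 8.51 to 13.4 (median 9.30) in vehicle libraries. The groups were apart by less than 1 normalized count, and the log2 fold change was 0.81 (SE 0.21, adjusted p = 0.0050 by edgeR). The call was lost in 11 of 23 alternatives, among them DESeq2's Wald test and leaving out BAM15 library 2 or 6 or any vehicle library but the fifth, with adjusted p-values of up to 0.213. Timm8b, Timm13 and Timm10b had log2 fold changes of -0.04, -0.09 and 0.09, with adjusted p-values of 0.787, 0.433 and 0.335 (edgeR). For Timm8b, Timm13 and Timm9, exons on the opposite strand (of Nkapd1, Tmprss9 and Tomm20l) cover 81, 43 and 48 of the last 400 bases.

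The TIM22 complex had 2 genes, and both were lower after BAM15. Timm22, its channel-forming subunit for carrier proteins (chromosome 11, 76406952 to 76416292), had normalized counts of 869, 942, 959, 818, 662 and 750 in BAM15 libraries 1 to 6. All were below the vehicle libraries, which held 1162 to 1392 (median 1254). The means were 833 ± 114 and 1268 ± 91.8 (SD, n = 6 each), so that counts fell by 34.3% (log2 fold change -0.61, SE 0.09, adjusted p = 3.104e-05 by edgeR), the lowest log2 fold change of the 36 genes. Timm29, a metazoan subunit that links the complex to TOM (chromosome 9, 21592722 to 21595970), had 372, 290, 357, 436, 479 and 540 normalized counts in BAM15 libraries 1 to 6 and 521 to 664 (median 610) in vehicle libraries. Only BAM15 library 6 reached into the vehicle range. The log2 fold change was -0.54 (SE 0.13, adjusted p = 0.0020 by edgeR).

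The TIM23 complex had 5 genes, none of which passed the test at an adjusted p of 0.01, with a median log2 fold change of 0.00. Timm17a, a channel subunit, had the lowest p of them, with 867, 797, 830, 1113, 1389 and 1135 normalized counts in BAM15 libraries 1 to 6 and 1183 to 1357 (median 1253) in vehicle libraries. All BAM15 libraries except number 5 were below every vehicle library, with numbers 1 to 3 the lowest. The log2 fold change over all libraries was -0.31 (SE 0.12, adjusted p = 0.0399 by edgeR). Its paralog Timm17b, the receptor Timm50 and the core subunit Timm23 had log2 fold changes of -0.03, 0.02 and 0.00, and Timm21, which contacts the TOM complex, had 0.30 (SE 0.16, adjusted p = 0.127 by edgeR). Timm23 rests on 26.2 normalized counts on average and shares 92.9% of its 3′ windows with Gm10273.

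The import motor had 6 genes, of which 1 was higher after BAM15, 0 were lower and 5 did not pass the test. Grpel1, the nucleotide exchange factor of the motor's Hsp70 (chromosome 5, 36464998 to 36474080), had 1079 to 1205 normalized counts (median 1161) in BAM15 libraries and 925 to 1025 (median 978) in vehicle libraries. The groups were apart, and the change was the smallest of the 9 called genes, 18.1% higher (log2 fold change 0.24, SE 0.05, adjusted p = 0.0009 by edgeR). With scaling by library size alone, or within numbers 1 to 3 or 4 to 6 alone, the call was lost, with adjusted p-values of up to 0.0220. Exons of Tada2b on the opposite strand cover all of the last 400 bases of Grpel1. The normalized count of Tada2b was 346 ± 32.9 after BAM15 and 349 ± 28.4 with vehicle (SD, n = 6 each, adjusted p = 0.896 by edgeR). Whether reads of such neighbours entered the counts of import genes was not tested. The paralog Grpel2, the membrane anchor Timm44 and the J-domain regulators Dnajc15, Dnajc19 and Pam16 had log2 fold changes of 0.17, 0.17, 0.05, -0.23 and 0.07. Pam16 shares 96.9% of its 3′ windows with Gm9803 and Dnajc19 27.4% with Dnajc19-ps.

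The oxidative folding relay had 2 genes, and both were higher after BAM15. Chchd4, the oxidoreductase that introduces disulfide bonds into imported proteins (chromosome 6, 91462172 to 91473546), had 795, 742, 831, 968, 942 and 1097 normalized counts in BAM15 libraries 1 to 6 and 637 to 682 (median 671) in vehicle libraries. All BAM15 libraries were higher, with a log2 fold change of 0.43 (SE 0.08, adjusted p = 0.0005 by edgeR). With numbers 1 to 3 fitted alone the call was lost, at an adjusted p of 0.0108 (edgeR). Gfer, the sulfhydryl oxidase that reoxidises Chchd4 (chromosome 17, 24693187 to 24696156), had 615, 597, 566, 434, 484 and 426 normalized counts in BAM15 libraries 1 to 6 and 293 to 351 (median 326) in vehicle libraries. The groups were apart here too, with means of 520 ± 83.2 and 323 ± 22.3 (SD, n = 6 each), 61.1% higher (log2 fold change 0.69, SE 0.10, adjusted p = 3.318e-05 by edgeR).

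**Figure D2:**
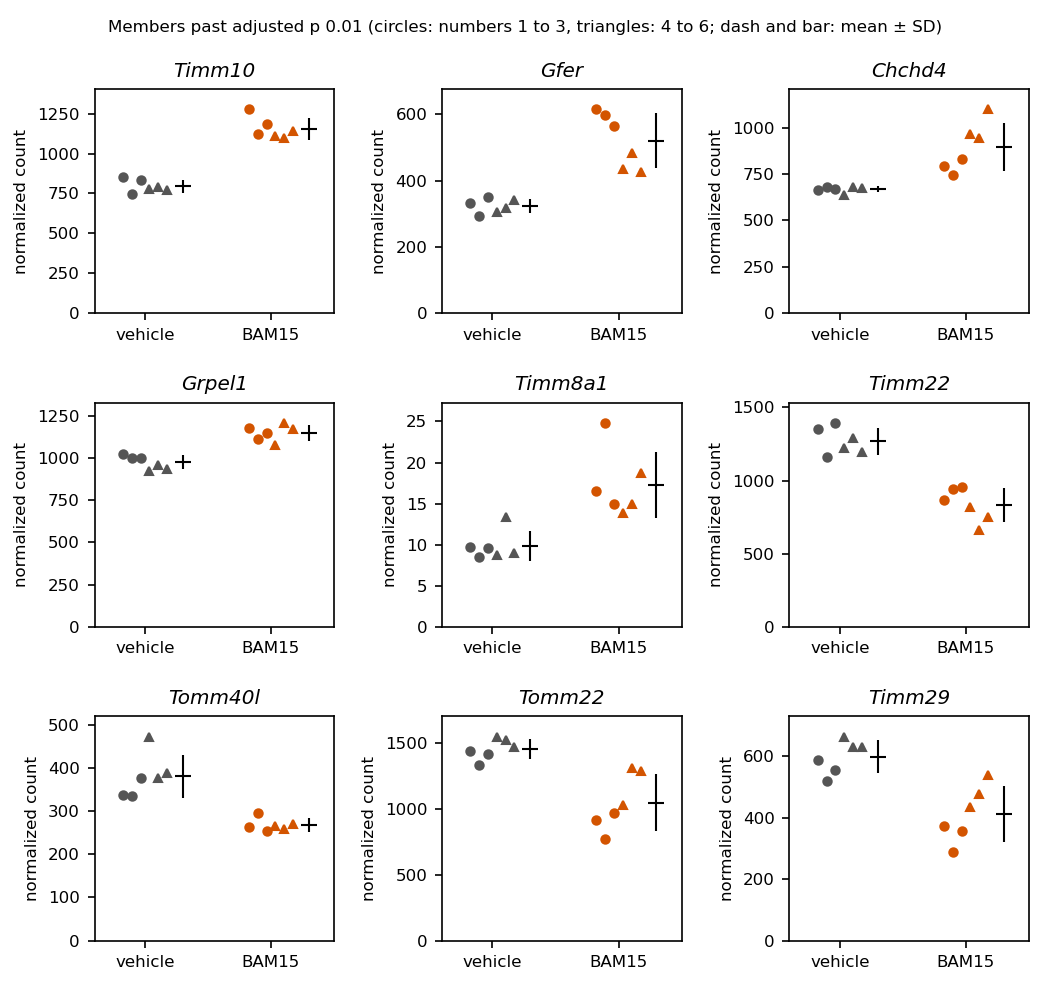
Normalized counts (y axis, from 0) of the 9 import genes past an adjusted p of 0.01 in each library (circles for numbers 1 to 3, triangles for 4 to 6), with the mean and SD of 6 libraries beside them. The BAM15 and vehicle points are apart in 8 of the genes and overlap in Timm29, where BAM15 library 6 at 540 exceeds the lowest vehicle library at 521.

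The sorting and assembly machinery had 3 genes, and the log2 fold changes of Samm50, its barrel-shaped core, and of the metaxins Mtx1 and Mtx2 were -0.01, -0.08 and -0.06, with adjusted p-values of 0.942, 0.507 and 0.801 (edgeR). The matrix processing peptidase had 2 genes, neither of which passed the test. Pmpcb, its catalytic subunit, had normalized counts of 155, 104, 102, 282, 1364 and 617 in BAM15 libraries 1 to 6 and 180 to 381 (median 246) in vehicle libraries. Its BAM15 values thus lay on both sides of the vehicle range, and the log2 fold change of 0.77 had a standard error of 0.61 (adjusted p = 0.313 by edgeR). Pmpca, the substrate-binding subunit, had a log2 fold change of -0.02 (SE 0.10), and exons of Inpp5e on the opposite strand cover all of its last 400 bases. Tomm34, a cytosolic co-chaperone, and Timmdc1, an assembly factor of respiratory complex I, are included by their symbols and had log2 fold changes of -0.06 and 0.09.

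Many import genes differed within the BAM15 group, between libraries 1 to 3 and libraries 4 to 6. The labels name no batch for these numbers, so this is a split by library number only. It was chosen because earlier results of these data had shown BAM15 libraries 4 to 6 apart from 1 to 3. Its p-values thus describe a grouping taken from the same counts, and are no independent evidence that the sets differ. At an adjusted p below 0.05 (edgeR, with a term for each of the 4 groups), 15 import genes were higher in BAM15 libraries 4 to 6 and 7 were lower, 41.7% and 19.4% of the 36, beside 18.6% and 20.2% of all tested genes. Between vehicle libraries 4 to 6 and 1 to 3, 0 import genes passed this threshold in edgeR and 4 had an unadjusted p below 0.05. The shares of all tested genes between these vehicle libraries were not computed, so the counts cannot be read as particular to import genes. Import genes took up to 0.167% of the reads in BAM15 libraries 1 to 3 and at least 0.174% in BAM15 libraries 4 to 6. The summed count of the myotube markers moved the other way, with 539423 to 576713 in BAM15 libraries 1 to 3 and 443403 to 485717 in 4 to 6. The sum of the undifferentiated or cycling myoblast markers was 2914 to 3162 in BAM15 libraries 1 to 3 and 3454 to 3815 in 4 to 6. The part of either sum in the result was not tested.

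**Figure D3:**
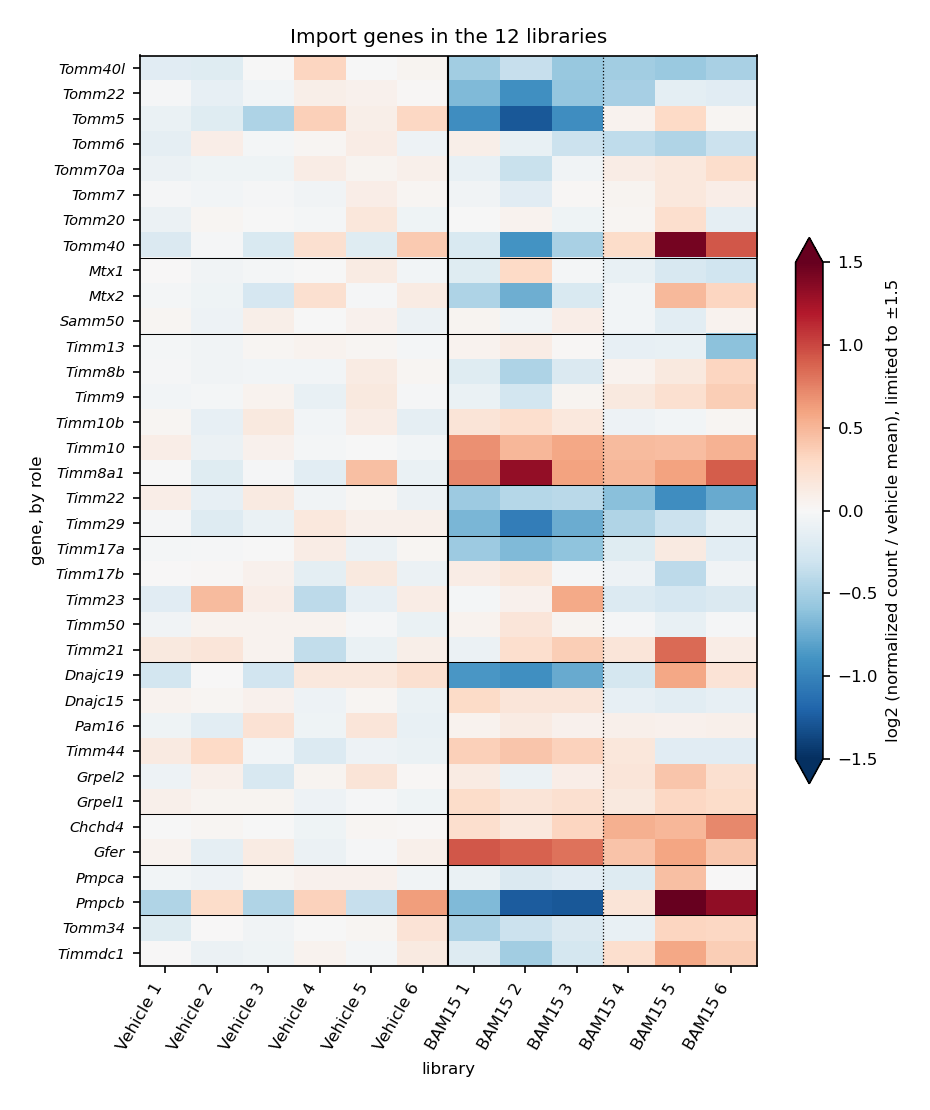
Log2 of each normalized count over the vehicle mean of its gene (colour, limited to 1.5 in each direction) for the 36 import genes (rows, by role) in 6 vehicle and 6 BAM15 libraries (columns). The dotted line divides BAM15 libraries 1 to 3 from 4 to 6, and genes such as Pmpcb, Tomm40 and Tomm5 differ in colour across it.

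These genes spread more between BAM15 than between vehicle libraries, while their BAM15 spread was near that of all tested genes. The coefficient of variation was larger among BAM15 than among vehicle libraries in 33 of 36 import genes, 91.7%, and in 72.5% of all tested genes. Its median was 16.0% in BAM15 and 6.83% in vehicle libraries for the import genes, and 14.8% and 9.81% over all tested genes. Pmpcb varied most, with 113% among BAM15 and 32.9% among vehicle libraries, and Pam16 varied least among BAM15 libraries, with 1.66%, but had 11.3% among vehicle libraries, above the median there.

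When BAM15 was compared with vehicle within each set of numbers, the sign of the log2 fold change was opposite between the sets in 19 of the 36 import genes, 52.8%, and in 23.3% of all tested genes. None of the 9 called genes was among the 19, a count that their choice over the same libraries largely fixes. In the model with 4 groups, 2 import genes were higher and 7 lower at an adjusted p below 0.01 within numbers 1 to 3, beside 20.0% and 19.4% of all tested genes. Within numbers 4 to 6, 5 were higher and 4 lower, beside 20.5% and 20.1%. For Timm10 the log2 fold changes were 0.56 and 0.51 in numbers 1 to 3 and 4 to 6, nearly alike. For Gfer they were 0.86 and 0.48, and for Chchd4 0.24 and 0.59. For Timm22 they were -0.50 and -0.73.

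The difference between these effects was itself tested, and 2 import genes passed an adjusted p of 0.05 (edgeR), both with a larger log2 fold change in numbers 4 to 6, beside 2.14% of all genes with a larger and 0.518% with a smaller value there. Timm17a had log2 fold changes of -0.58 in numbers 1 to 3 and -0.07 in 4 to 6, a difference of 0.51 (SE 0.12, adjusted p = 0.0444 by edgeR). Timmdc1 had log2 fold changes of -0.27 and 0.36, a difference of 0.63 (SE 0.14, adjusted p = 0.0442 by edgeR). Both lay just inside the threshold. For each of the 12 libraries except BAM15 library 4 and vehicle library 3, leaving it out lost both calls, with adjusted p-values of up to 0.123. For Pmpcb the difference was the largest in size, 2.21 (SE 0.81), but did not pass the test (adjusted p = 0.137 by edgeR).

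**Figure D4:**
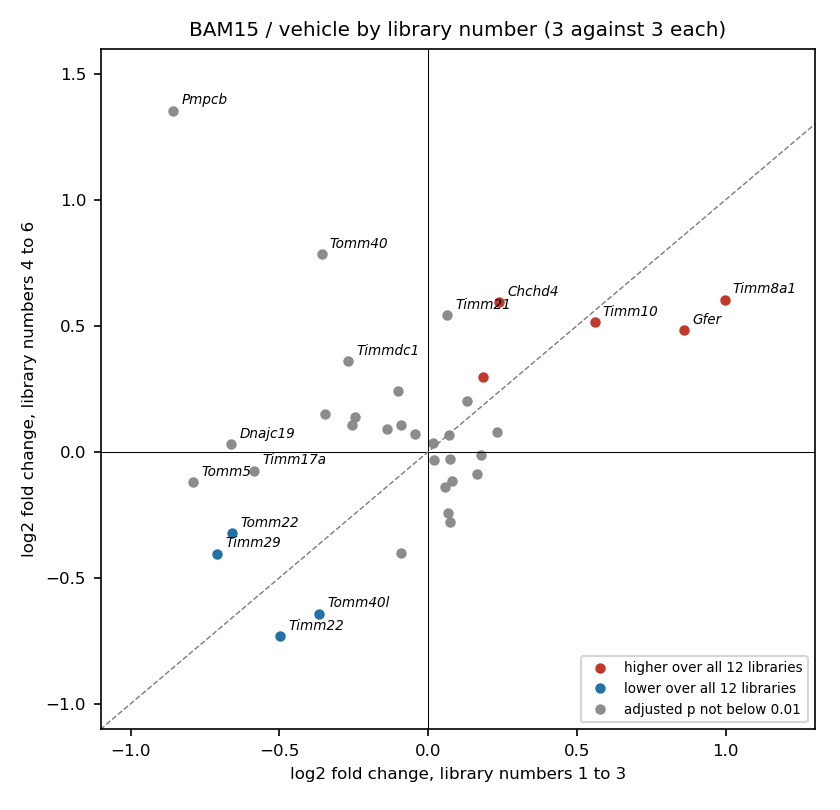
Log2 fold change of BAM15 over vehicle within library numbers 1 to 3 (x axis) and 4 to 6 (y axis), 3 libraries per condition in each, for the 36 import genes. Points on the dashed line have equal effects, red and blue points are the 5 higher and 4 lower genes called over all libraries, and Pmpcb (-0.86 and 1.35) lies farthest from the line.

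Ratios of related genes within a library do not depend on how libraries are scaled, and 8 pairs were compared between conditions by an exact two-sided permutation test with Benjamini-Hochberg adjustment over the pairs (smallest possible p = 0.002165). The ratio of Timm10 to Timm10b was higher after BAM15 by 0.45 on the log2 scale, and the 6 BAM15 libraries lay above the 6 vehicle libraries (adjusted p = 0.0087, exact permutation test). The ratio of Timm8a1 to Timm8b was higher by 0.84, again without overlap (adjusted p = 0.0087, exact permutation test), and rests on the few reads of Timm8a1. With 3 libraries per condition these differences were 0.38 and 0.52 for Timm10/Timm10b and 1.21 and 0.47 for Timm8a1/Timm8b, in numbers 1 to 3 and 4 to 6.

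The other 6 pairs did not pass the test, and their groups overlapped. The log2 ratio changed by 0.67 for Tomm40/Tomm40l (adjusted p = 0.335, exact permutation test), by -0.02 within numbers 1 to 3 and by 1.36 within 4 to 6. Without BAM15 library 2 this pair passed, at a difference of 0.92 (adjusted p = 0.0346, exact permutation test). For Timm17a/Timm17b the difference was -0.29 (adjusted p = 0.372, exact permutation test), with -0.64 and 0.06 in the 2 sets of numbers. Without BAM15 library 5 it was -0.46 (adjusted p = 0.0404, exact permutation test). For Dnajc15/Dnajc19, Pmpca/Pmpcb, Grpel1/Grpel2 and Mtx1/Mtx2 the differences were 0.37, -0.17, 0.08 and 0.02, with adjusted p-values of 0.485, 0.878, 0.580 and 0.961 (exact permutation test).

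**Figure D5:**
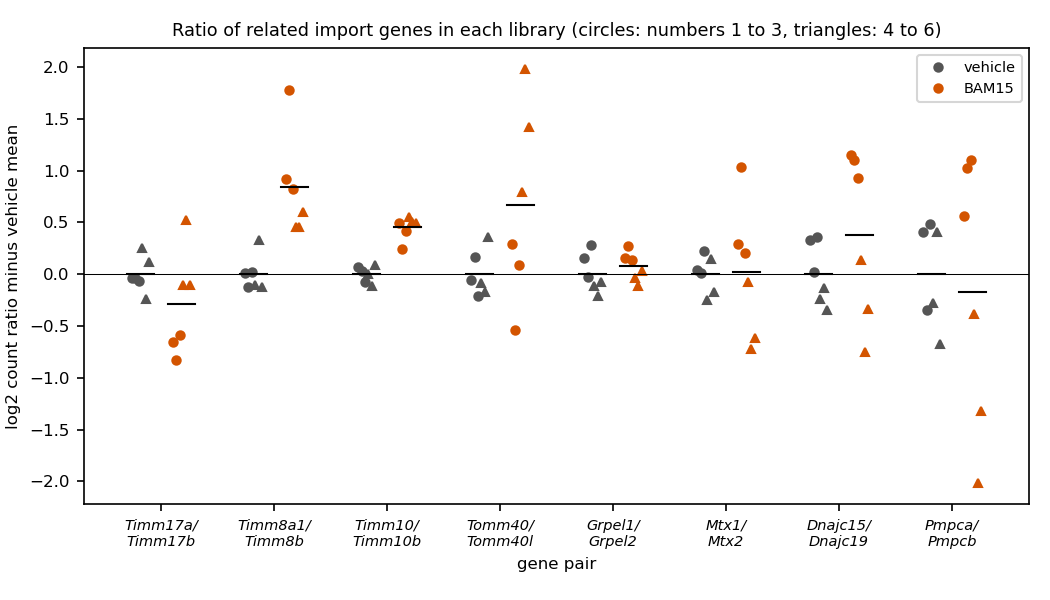
Log2 ratio of the counts of 8 gene pairs (x axis) in each library, minus the vehicle mean of the pair (y axis), for vehicle (grey) and BAM15 (orange) libraries, with circles for numbers 1 to 3, triangles for 4 to 6 and dashes for the mean of 6. The 2 conditions are apart for Timm8a1/Timm8b (mean difference 0.84) and Timm10/Timm10b (0.45). BAM15 circles and triangles lie apart from each other in several pairs, among them Tomm40/Tomm40l, Pmpca/Pmpcb, Timm17a/Timm17b, Dnajc15/Dnajc19 and Mtx1/Mtx2.

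Genes that act beside this machinery were read from 2 lists written by function. Of 16 genes of import and processing outside the symbol rule, 4 were higher after BAM15 and 3 lower at an adjusted p below 0.01, with a median log2 fold change of 0.17. These shares of 25.0% and 18.8% are near those of all tested genes, 22.0% and 20.3%. Hspa9, the Hsp70 that drives the import motor, rose from 5475 ± 199 to 13960 ± 1147 normalized counts (SD, n = 6 each; log2 fold change 1.35, SE 0.06, adjusted p = 8.165e-11 by edgeR), and was the only gene of this list past all 3 thresholds. Immp2l of the inner membrane peptidase, the insertase Cox18 and the presequence-degrading Pitrm1 were higher by log2 fold changes of 0.78, 0.61 and 0.34. Mtch1, a carrier-like protein of the outer membrane, was lower by a log2 fold change of -0.90, as were Romo1 (-0.39) and Aifm1, which binds Chchd4 (-0.30).

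The second list held 12 mitochondrial chaperones and proteases, which fold or degrade proteins after import. Of these, 7 (58.3%) were higher after BAM15, 0 were lower and 5 did not pass the test. Of all tested genes, 22.0% were higher and 20.3% lower. The median log2 fold change of the list was 0.47. The protease Lonp1, the chaperonins Hspd1 and Hspe1 and the co-chaperone Dnaja3 passed all 3 thresholds, with log2 fold changes of 1.48, 1.38, 1.07 and 1.37. Clpp, Afg3l2 and Trap1 were higher by 0.59, 0.50 and 0.19. The summed normalized count of the 12 genes was 21143 to 21690 in BAM15 libraries and 12388 to 12906 in vehicle libraries, without overlap. The lowest adjusted p of this list for a difference between the sets of numbers was that of Dnaja3, which was not below 0.05. Dnaja3 had a log2 fold change of 0.78 in numbers 1 to 3 and 1.77 in 4 to 6 (adjusted p of the difference = 0.0513 by edgeR).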

How the data were processed

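RNA of 12 libraries of C2C12 myotubes was compared, 6 with BAM15 and 6 with vehicle, grouped by their labels. The authors prepared 3′ QuantSeq libraries, aligned forward reads with BlueBee software and deposited whole-number counts per Ensembl gene, without normalization. The authors also deposited a normalized signal made with DESeq2 (version 1.22.2 in the submitters' processing notes), in which each library's counts are divided by its own size factor (0.836 to 1.07), and this table served here only for gene symbols. The processing notes name GRCm38 (mm10), while the aligner version, the annotation and the strand of counting are not given in the sources used here. Columns of 11 other samples were not used. The labels and the methods give different read lengths and passages.

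In R 4.3.3 with edgeR 4.0.16, filterByExpr removed 2383 of 15113 genes, TMM factors (0.932 to 1.04) scaled the libraries, and a robust quasi-likelihood model of condition was fitted, with Benjamini-Hochberg adjustment over the 12730 remaining genes. A fit with 4 groups (condition by numbers 1 to 3 and 4 to 6) gave the difference between effects. Normalized counts are TMM-scaled. Pair ratios used a pseudocount of 0.5. Total counts of 13983725 to 18866728 set the precision, and errors are between libraries. Chi-square per gene was 4.96 or more between any libraries of the same condition, above sampling noise, so none was counted as a copy. Shared sequence was sought in 50-base windows over the last 400 transcript bases. Counts were simulated with 200 genes changed by 1.5 on the log2 scale. The BAM15 test recovered 200 and called 2 others of 12784 genes tested. The test of the difference between number sets recovered 200 and called 7 others of 12753. The simulation used 1 setting for the spread of all genes in both conditions. Its planted changes were larger than those of the import genes (log2 fold changes of -0.61 to 0.81). It therefore checks that the tests run as intended, and gives no rate of recovery or false calls for these genes.

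Import genes, pairs, lists, markers and the split by library number were chosen with earlier results of these data known. All import genes are named, with full statistics for the 4 lowest p-values in each direction and for the pairs, and genes of the further lists are named only at an adjusted p below 0.01. Alternatives were other scalings (DESeq2 size factors, upper quartile, library size), other filters, DESeq2 1.42.0, limma-voom (limma 3.58.1), no robust moderation, blocks for the number or number set, each number set alone, each library left out, other thresholds and a pseudocount of 5. The alternatives for the difference between effects were chosen after seeing the data. Protein sequences were not used here.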

Additional observations from a re-analysis of the deposited data

Results flagged for a closer look

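Among 72 groups of 6 libraries (36 import genes in each condition), 6 held a library far from the rest of its group, where chance gives about 1 in 20. The 6 were Mtx1 in vehicle library 5 (252.6 normalized counts), Pam16 in BAM15 library 2 (780.0), Pmpca in BAM15 library 5 (958.5), Timm13 in BAM15 library 6 (1298), Timm23 in BAM15 library 3 (38.5) and Timm8a1 in vehicle library 5 (13.4). The libraries concerned were BAM15 libraries 2, 3, 5 and 6 and vehicle library 5.

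The effect of BAM15 differed between library numbers 4 to 6 and 1 to 3 in Timm17a, by 0.51 on the log2 scale, and in Timmdc1, by 0.629, by edgeR's test of the difference itself.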

How the results depend on the processing

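Under all alternatives run, the 9 called genes kept their direction, and Gfer, Timm10, Timm22, Timm29 and Tomm40l also kept an adjusted p below 0.01. Timm8a1 lost its call in 11 of 23 alternatives, Grpel1 in 3 of 24, Chchd4 in numbers 1 to 3 alone and Tomm22 in numbers 4 to 6 alone. When each set of numbers was fitted on its own (3 libraries per condition), 2 import genes were higher and 8 lower in numbers 1 to 3 (22.2% and 22.2% of all genes tested there), and 3 were higher and 3 lower in numbers 4 to 6 (16.5% and 16.7%). Genes past the threshold only then were Dnajc19, Timm8b, Tomm5 and Timm17a in numbers 1 to 3, and Timm17a also without BAM15 library 5 and with a block for the number set. At more than 1.5-fold in place of 2-fold, 1 import gene was higher and 1 lower. The share of all tested genes at this fold change was not computed. With the replicate block, 4 import genes were higher and 4 lower (21.4% and 20.2% of all tested genes), and Timm8a1 alone lost its call. The block left the pair differences at 0.84 (Timm8a1/Timm8b) and 0.45 (Timm10/Timm10b) with an adjusted p of 0.125 (exact sign-flip test), the lowest this test can give for 2 of 8 pairs since its smallest p is 0.03125, so nothing about the pairs follows from it. Deviations of libraries with the same number correlated at -0.08 to 0.31, and 2 of 6 libraries correlated best with their own number, so the numbers were not taken as pairs. Scaling by library size only moved the median log2 fold change of all genes from 0.02 to -0.04. Genes that did not pass the test changed sign as follows, and each printed value is a log2 fold change. Scaling by library size only gave Dnajc15 -0.019, Timm50 -0.039, Tomm20 -0.036, Tomm7 -0.041 and Tomm70a -0.038, and upper-quartile scaling gave Tomm7 -0.004 and Tomm70a -0.003. At least 10 counts in every library gave Samm50 0.00 and Timm23 0.003. Numbers 1 to 3 alone gave Mtx1 0.062, Pmpcb -0.859, Samm50 0.014, Timm13 0.071, Timm17b 0.055, Timm23 0.080, Timm9 -0.103, Timmdc1 -0.274, Tomm40 -0.36, Tomm7 -0.047 and Tomm70a -0.093. Numbers 4 to 6 alone gave Dnajc15 -0.10, Dnajc19 0.022, Mtx2 0.141, Pmpca 0.081, Timm10b -0.025, Timm50 -0.038, Timm8b 0.127 and Tomm34 0.097. Leaving out each library in turn gave ranges of -0.004 to 0.088 for Dnajc15, -0.196 to 0.047 for Mtx2, -0.133 to 0.020 for Pmpca, -0.042 to 0.975 for Pmpcb, -0.028 to 0.023 for Samm50, -0.077 to 0.028 for Timm17b, -0.15 to 0.098 for Timm23, -0.009 to 0.052 for Timm50, -0.118 to 0.036 for Timm8b, -0.036 to 0.184 for Timmdc1, -0.025 to 0.058 for Tomm20, -0.145 to 0.016 for Tomm34, -0.012 to 0.053 for Tomm7 and -0.037 to 0.077 for Tomm70a. Pmpcb fell to the low end without BAM15 library 5. For the pairs these ranges were -0.455 to -0.184 (Timm17a/Timm17b), 0.41 to 0.915 (Tomm40/Tomm40l), -0.184 to 0.167 (Mtx1/Mtx2) and -0.427 to 0.197 (Pmpca/Pmpcb), and Tomm40/Tomm40l differed by -0.018 in numbers 1 to 3 and 1.363 in 4 to 6. The number of import genes whose effect differed between the number sets was 2, became 5 with library size only, and ranged from 0 to 13 as libraries were left out, with 13 without BAM15 library 4, 2 without vehicle library 3 and 0 without any other. The shares of all tested genes in these settings were not computed, so the counts cannot be read as particular to import genes. The cause of the changes under the alternatives was not tested. Depth limits Timm8a1 and Timm23, whose means were below 50 normalized counts.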
